A study of Rattus norvegicus with 4 samples.

Results

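The subunit genes of the NMDA receptor were followed in rat hippocampus after voluntary running. The family has 7 members, Grin1, Grin2a, Grin2b, Grin2c, Grin2d, Grin3a and Grin3b. Members were found on the array as spots whose RefSeq accession resolves to 1 of these symbols, without use of any measured value. This gave 7 of the 41012 noncontrol probes and 43 of the 43379 noncontrol spots of a chip. Grin2a had 2 probes, Grin1, Grin2b, Grin2c, Grin2d and Grin3b had 1 probe each, and no probe matched Grin3a, which is not analysed here. The rats were male Wistar, 10 weeks old at allocation and kept 1 to a cage. The sedentary group (Sed, 10 rats) stayed in standard cages, the WR group (8 rats) had a wheel without resistance for 4 weeks, and the RWR group (8 rats) had a wheel whose resistance was raised to 30% of body weight over the same 4 weeks. The rats were killed on the day after the last day of running. RNA of replicates was pooled within each group in equal amounts. Which rats entered a pool is not given in the sources used here, and a pool need not hold all rats of its group. Chips 1 and 2 compared the WR and Sed pools and chips 3 and 4 the RWR and Sed pools. Cy3 and Cy5 were exchanged between the chips of a pair. Each comparison thus rests on 1 pool against 1 pool and allows no test across rats. The Sed pool is taken to be the same on all chips, which the sources do not state. Every difference between RWR and WR given below rests on this assumption.

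NMDA receptors are glutamate-gated cation channels that open only when glutamate and a co-agonist, glycine or D-serine, are bound and the magnesium block is relieved by depolarization. A channel is a tetramer with GluN1, the product of Grin1, as its obligatory subunit. The GluN2 subunits bind glutamate and set the kinetics of the channel, and the GluN3 subunits lower its calcium permeability. In the adult hippocampus, calcium entry through receptors with GluN2A and GluN2B starts the signalling of long-term potentiation. As the array is on whole hippocampus, fewer cells of a type and less RNA per cell cannot be told apart in any value below.

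All ratios are of running over sedentary on the log2 scale, with the sign turned on chips 2 and 4. A spot counted as measured where the software flagged it well above background, which held for 67.5% to 77.6% of noncontrol spots in Cy3 and 71.7% to 82.5% in Cy5. Across all probes the turned ratios correlated at -0.761 between chips 1 and 2 and at -0.686 between chips 3 and 4, and at 0.712 between chips 1 and 3, which share a dye orientation. Most of the spread of a single chip thus repeated with the dye and not with the pool. This dye term cancels in the mean of a pair. What was left after the dye term and both pair means were removed gave the technical SD of a chip, taken over all probes of like signal, and from it the technical standard error (SE) of a pair mean, which was between 0.028 and 0.069 for the subunit probes other than Grin3b. It covers the chips only and holds no spread between rats. The chip correlations are across probes, which are not independent replicates.

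No subunit probe was called in either comparison. To be called, a probe had to pass 1.5-fold upwards or 0.75-fold downwards on each chip of a pair, with the scanner software's p-value under 0.01 on each. Of all probes, 0.0317% met this in WR (0.00244% higher and 0.0293% lower) and 0.0585% in RWR (0.00975% higher and 0.0488% lower), so 0 of 7 subunit probes is no result about the family. The lowest software p-value of any subunit probe on any chip was 0.11. The ratios of the 7 probes on single chips lay between -0.27 and 0.34, inside the cutoffs on every chip. At a smaller fold, above 1.2-fold on the pair mean with the same direction on both chips, the count was also 0 of 7 in each comparison. That rule took 2.29% of all probes as higher and 1.89% as lower in WR, and 1.64% and 4.48% in RWR. Among probes well above background it took 0.593% as higher and 0.717% as lower in WR, and 0.757% and 0.902% in RWR. The median ratio over the 6 genes was 0.024 in WR and 0.056 in RWR, beside medians of 0.0015 and -0.0047 over all named genes.

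**Figure D1:**
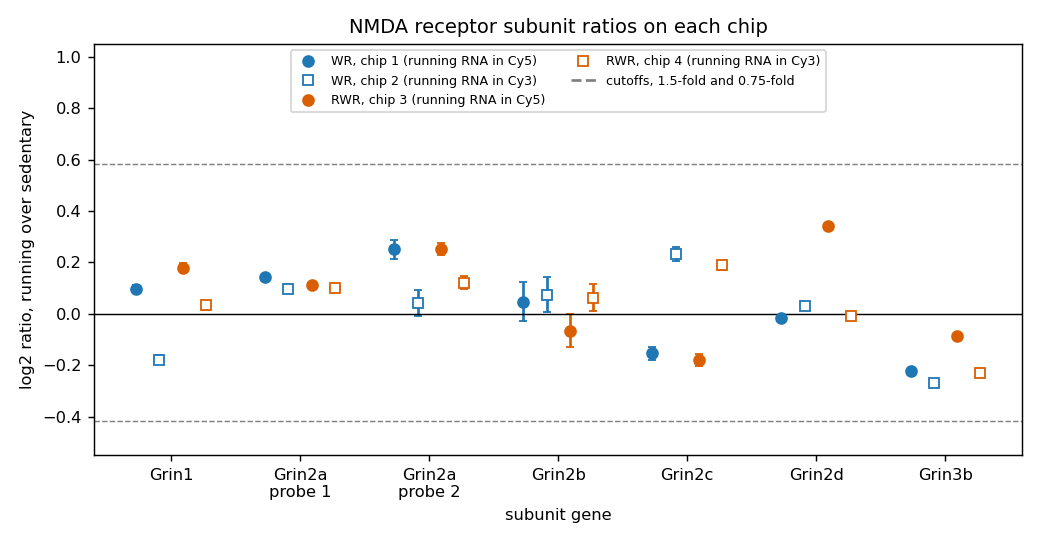
Log2 ratio of running over sedentary (vertical axis) for each subunit probe on each of the 4 chips, with filled circles where the running pool was labelled with Cy5 and open squares where it was labelled with Cy3. Bars are the SD over the 9 or 10 spots of a probe, and dashed lines mark 1.5-fold and 0.75-fold. Both Grin2a probes lie above 0 on all 4 chips, Grin2c changes sign with the dye, and no point passes a dashed line.

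Grin1 encodes GluN1, which every NMDA receptor needs. Its promoter is shown because calcium entry through NMDA receptors activates the transcription factor CREB, whose binding element holds the letters TGACG, or CGTCA on the other strand. The 250 bases before the start of the gene as RefSeq annotates it are printed 5′ to 3′ on the gene's strand from GRCr8, at chr3:28528755-28529004 (minus strand), with these letters in capitals.
Grin1: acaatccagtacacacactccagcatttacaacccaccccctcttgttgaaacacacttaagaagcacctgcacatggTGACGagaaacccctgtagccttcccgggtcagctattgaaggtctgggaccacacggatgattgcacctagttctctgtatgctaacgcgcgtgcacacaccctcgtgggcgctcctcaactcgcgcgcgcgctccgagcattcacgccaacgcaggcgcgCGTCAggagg
The stretch holds these letters 2 times. Of 33469 windows of the same length in the RefSeq promoter table, 18.2% hold them at least once. The table also has windows for Grin2c, Grin2d and Grin3a, which lie inside the annotated span of these genes and are not shown. Each of them holds these letters 0 times. Grin2a, Grin2b and Grin3b have no window in the table, so nothing follows for the family. The letters GGGCGG or CCGCCC were searched as well and occur in none of the 4 windows, against 30.5% of all windows. A match describes the letters of a window and says nothing of binding, and the array data do not bear on it.

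The Grin1 probe had a signal of 11888, 11908, 12417 and 11405 in the sedentary pool on chips 1 to 4. In the WR pool it had 12705 on chip 1 and 10525 on chip 2, and in the RWR pool 14062 on chip 3 and 11672 on chip 4. The RWR pool was above the sedentary pool on both of its chips, and the WR pool was above on chip 1 and below on chip 2. The log2 ratios were 0.096 and -0.18 in WR, with a mean of -0.041 ± 0.028 (technical SE, 2 chips). In RWR they were 0.18 and 0.033, with a mean of 0.11 ± 0.028. Over the 9 or 10 spots of the probe the SD was between 0.015 and 0.018 on a chip, far below the gap between the chips of a pair. Between chips of the same dye orientation, RWR exceeded WR by 0.083 with the running pool in Cy5 and by 0.21 with it in Cy3. The mean difference was 0.15, with a technical SE of 0.040, and it was not tested across rats. It assumes that chips 1 to 4 carried the same sedentary pool.

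Grin2a encodes GluN2A, the main GluN2 subunit of the mature forebrain. The brighter probe had 1248, 1103, 1298 and 1112 in the sedentary pool on chips 1 to 4, 1380 and 1181 in the WR pool and 1404 and 1194 in the RWR pool. The running pool was the higher one on every chip. The 4 log2 ratios were 0.15 and 0.099 in WR and 0.11 and 0.10 in RWR, with means of 0.12 ± 0.029 and 0.11 ± 0.029, or 1.09-fold and 1.08-fold.

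The second Grin2a probe, with 10 spots, had 781, 778, 814 and 744 in the sedentary pool, 929.9 and 801 in the WR pool and 971 and 808 in the RWR pool. It too was higher in the running pool on all 4 chips. The log2 ratios were 0.25 and 0.042 in WR and 0.25 and 0.12 in RWR, with means of 0.15 ± 0.032 and 0.19 ± 0.032. Of the 24953 probes well above background, 5.33% had a ratio above 0 on all 4 chips and 5.03% below 0 on all 4. The chips of both comparisons share a sedentary group, so the values in WR and RWR are not independent of each other, and the 2 probes report the same transcript of the same pools. Between RWR and WR the probes differed by -0.014, with a technical SE of 0.041, and by 0.040, with a technical SE of 0.045.

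Grin2b encodes GluN2B, which prevails early in development and stays expressed in the adult hippocampus. Its probe had 129, 122, 149 and 121 in the sedentary pool, 133 and 129 in the WR pool and 142 and 126 in the RWR pool. The pools overlapped. The log2 ratio was 0.061 ± 0.069 in WR, from 0.048 and 0.075, and -0.00058 ± 0.069 in RWR, from -0.065 and 0.063. Neither exceeded its technical SE. With normexp background correction and loess the value in WR was 0.0076, and with loess alone 0.018. The SD over 9 or 10 spots was between 0.052 and 0.076 on a chip. The low signal of this probe says nothing of GluN2B against the other subunits, since the signals of different probes cannot be set against each other.

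Grin2c encodes GluN2C, best known from cerebellar granule cells and also found in astrocytes. Its probe had 8008, 6159, 8383 and 6164 in the sedentary pool, 7196 and 7242 in the WR pool and 7394 and 7035 in the RWR pool. The sedentary signal was high where the sedentary pool was in Cy3 and low where it was in Cy5. The ratios accordingly changed sign with the dye, with -0.15 and 0.23 in WR and -0.18 and 0.19 in RWR. The pair means were 0.040 ± 0.028 and 0.0049 ± 0.028. The dye term, the mean log2 of Cy5 over Cy3, was -0.19 in each pair, larger in size than either pair mean of Grin2c. Gabra6, a defining marker of cerebellar granule cells, was not well above background in any pool on any chip. Neurod1, the other gene of that list with a probe and one that hippocampal granule cells also express, was well above background throughout, with ratios of 0.023 in WR and 0.072 in RWR. The astrocyte markers had a median ratio of 0.0078 in WR and 0.014 in RWR.

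**Figure D2:**
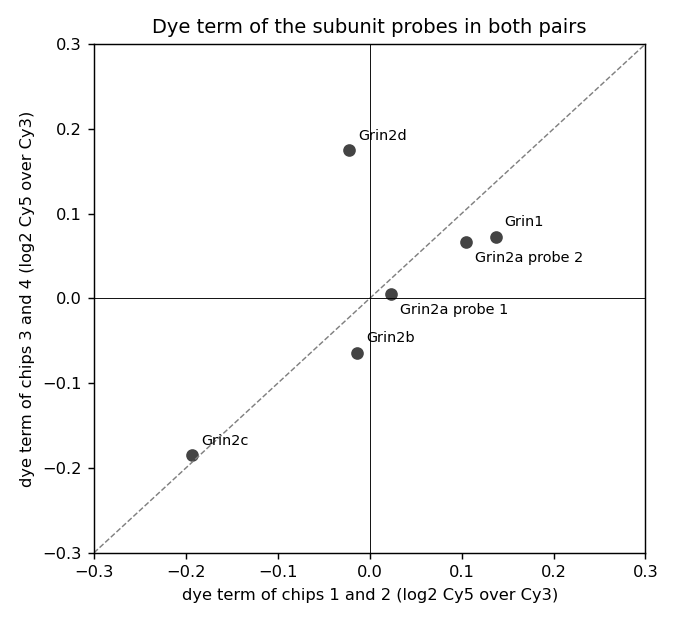
Dye term of each subunit probe well above background, the mean log2 of Cy5 over Cy3, in chips 1 and 2 (horizontal axis) against chips 3 and 4 (vertical axis), with the line of equal values dashed. Grin2c lies near -0.19 on both axes and Grin2d, at -0.023 and 0.17, lies farthest from the line.

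Grin2d encodes GluN2D, which in the adult hippocampus is found mainly in interneurons. Its probe, with 1 spot, had 337, 215, 146 and 155 in the sedentary pool on chips 1 to 4, 334 and 220 in the WR pool and 185 and 155 in the RWR pool. The signal differed more between chips than between pools, with a sedentary signal 2.31-fold higher on chip 1 than on chip 3 in the same dye, against at most 1.17-fold between like chips for any other subunit. After removal of the dye term and both pair means, -0.20 was left for this probe, against a technical SD of 0.074 for 1 chip. The technical SE below is taken over probes of like signal, so ± 0.053 does not hold the larger residual of this probe. In WR the ratios were -0.015 and 0.031, with a mean of 0.0080 ± 0.053. In RWR they were 0.34 on chip 3 and -0.0072 on chip 4, so that the mean of 0.17 ± 0.053 rests on chip 3. It was 0.058 with normexp background correction and loess and 0.072 with loess alone. The interneuron markers Gad1, Gad2, Sst and Pvalb were all well above background, with a summed signal of 18978 to 23921 in the RWR pool, 17840 to 21618 in the WR pool and 19068 to 20499 in the sedentary pool. Most of this sum was Sst, with a mean signal of 15972. The median ratio of the 4 markers was 0.095 in RWR and 0.026 in WR. Only 1 of the 4, Gad2, was above 0 on both chips in RWR, and 0 were in WR. The part of these markers in the value of Grin2d was not tested.

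Grin3b encodes GluN3B, known mainly from motor neurons. Its probe, with 1 spot, lay close to background. The sedentary pool passed the background flag on chips 2, 3 and 4, the RWR pool on chip 3 and the WR pool on neither chip. The signals were 26.0, 22.02, 30.4 and 23.5 in the sedentary pool, 22.3 and 18.3 in the WR pool and 28.6 and 20.01 in the RWR pool. The running pool was the lower one on every chip. In WR the ratios were -0.22 and -0.27, with a mean of -0.25 ± 0.32, within the technical SE, and no lower bound is given for the difference. Without background correction and with loess the value in WR was -0.13. In RWR the ratios were -0.085 and -0.23, with a mean of -0.16 ± 0.32, likewise within the technical SE. With normexp background correction and loess the value in RWR was 0.077, of the opposite sign.

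**Figure D3:**
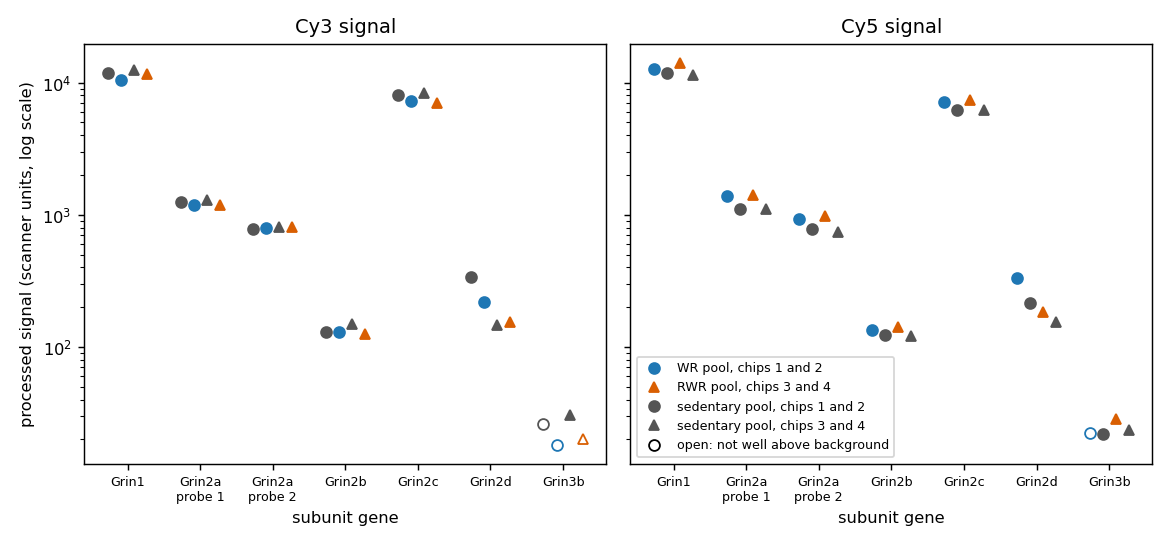
Processed signal of each subunit probe (vertical axis, log scale, scanner units) in Cy3 (left) and Cy5 (right), with sedentary pools in grey, WR in blue and RWR in orange, circles for chips 1 and 2 and triangles for chips 3 and 4. Within a dye, Grin2d lies higher on chips 1 and 2 than on chips 3 and 4 in all pools. Open symbols, all at Grin3b, were not well above background.

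All subunit genes with a probe except Grin3b, 5 in number, passed the background flag in each dye on every chip. Of these, 2 were above 0 on both chips in WR (Grin2a and Grin2b) and 2 in RWR (Grin1 and Grin2a), and 0 were below 0 on both chips in either. Of all probes well above background, 14.5% were above 0 on both chips in WR and 16.7% in RWR, and 13.9% and 16.2% were below 0 on both. The median of the 5 genes was 0.040 in WR and 0.11 in RWR, beside 0.00018 and -0.0014 over all named genes that passed the same filter. The filter used both pools, and Grin3b is left out by it. Of those named genes, 5% were below -0.13 and 5% above 0.14 in WR, and 5% below -0.14 and 5% above 0.14 in RWR. The second Grin2a probe lay above the upper of these limits in both comparisons and Grin2d in RWR, and the other subunit values well above background lay within them. The values of Grin2d in RWR under both loess alternatives were below the upper limit given here. The 3 named genes whose 4 chip ratios were closest to those of Grin1, the member with the highest mean signal, were Map1lc3a, Thop1 and Crhbp, with root mean square differences of 0.016, 0.018 and 0.020 over 4 chips. As many as 757 of 5918 genes lay within 0.1 of it, so the order among them carries little.

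The proteins that supply, anchor, modify and follow the receptor were taken from a list of 46 genes, of which 38 had a probe and 35 passed the background flag throughout. Of their 48 probes, 0 were called in WR and 0 in RWR. The median ratio of the 38 genes was 0.022 in WR and 0.011 in RWR, close to 0 as for all named genes. Of the 35 genes well above background, 8 were above 0 and 1 below 0 on both chips in WR, and 2 were above and 5 below in RWR. Among all probes well above background, 14.5% were above 0 and 13.9% below 0 on both chips in WR, and 16.7% and 16.2% in RWR. The partner counts were not tested against these shares.

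Among the kinases, Camk2b, a subunit of the calcium/calmodulin-dependent kinase that binds activated NMDA receptors, had the highest ratio in WR at 0.16 ± 0.028, with 0.12 and 0.20 on the chips. It was 0.074 ± 0.028 in RWR, where the chips were -0.033 and 0.18. Ptk2b, a calcium-dependent tyrosine kinase upstream of Src, had the highest ratio of the group in RWR at 0.13 ± 0.028, from 0.27 and -0.0017. The lowest ratios of the group were -0.019 ± 0.036 for Src in WR and -0.12 ± 0.069 for Csnk2a1, a catalytic subunit of casein kinase, in RWR. Csnk2a1 was below 0 on both chips of its pair and Camk2b above 0 on both of its own, while the chips disagreed in sign for Ptk2b and Src.

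Among the phosphatases, Ppp3ca, a catalytic subunit of calcineurin, was highest in both comparisons, with 0.13 ± 0.028 in WR and 0.086 ± 0.028 in RWR. It was above 0 on both chips in WR and on 1 of 2 in RWR. The lowest were Ppp1ca, a catalytic subunit of protein phosphatase, at 0.018 ± 0.028 in WR and Ppp3r1, the regulatory subunit of calcineurin, at 0.0095 ± 0.028 in RWR. All 4 phosphatase genes with a probe had a pair mean above 0 in both comparisons. So did 25 of the 35 partner genes well above background in WR and 19 in RWR. The median over all named genes well above background was 0.00018 in WR and -0.0014 in RWR. Whether the partner counts differ from those of all named genes was not tested. Above 0 on both chips were 2 of the 4 phosphatase genes in WR and 0 in RWR, and none of the 4 was called.

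Among the scaffolds, Dlg1 (SAP97) had the lowest ratio in RWR at -0.36 ± 0.069, from -0.60 on chip 3 and -0.11 on chip 4. In WR it was -0.14 ± 0.069, and the chips disagreed in sign. Dlg4 (PSD-95), which binds the tails of GluN2 subunits, had the lowest ratio in WR at -0.17 ± 0.036, from -0.68 on chip 1 and 0.33 on chip 2. Its chips disagreed in sign in RWR as well, at -0.61 and 0.23, and the pair mean there was -0.19 ± 0.036. In both pairs Dlg4 was below 0 with the running pool in Cy5 and above 0 with it in Cy3. The highest were Dlg3 in WR at 0.091 ± 0.053 and Homer1, which links receptors of the postsynaptic density, in RWR at 0.072 ± 0.029.

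In co-agonist supply and uptake, the glutamate transporter Slc1a3 was highest in both comparisons, at 0.0066 ± 0.028 in WR and 0.033 ± 0.028 in RWR. The glycine transporter Slc6a9 was lowest in both, at -0.074 ± 0.089 and -0.11 ± 0.089. In downstream signalling, the exchange factor Rasgrf2 was highest in WR at 0.13 ± 0.13 and lowest in RWR at -0.082 ± 0.13. Among the values of these transporters and of Rasgrf2, those of Slc1a3 and Slc6a9 in RWR and of Rasgrf2 in WR exceeded their technical SE, with the chips of Slc1a3 and Rasgrf2 opposite in sign. In trafficking, Nsf, an ATPase of membrane fusion, was lowest in both, at -0.052 ± 0.042 in WR and -0.14 ± 0.042 in RWR, and was below 0 on all 4 chips. The highest were Lin7b in WR at 0.044 ± 0.027 and Reln, the secreted protein reelin, in RWR at -0.0072 ± 0.027.

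**Figure D4:**
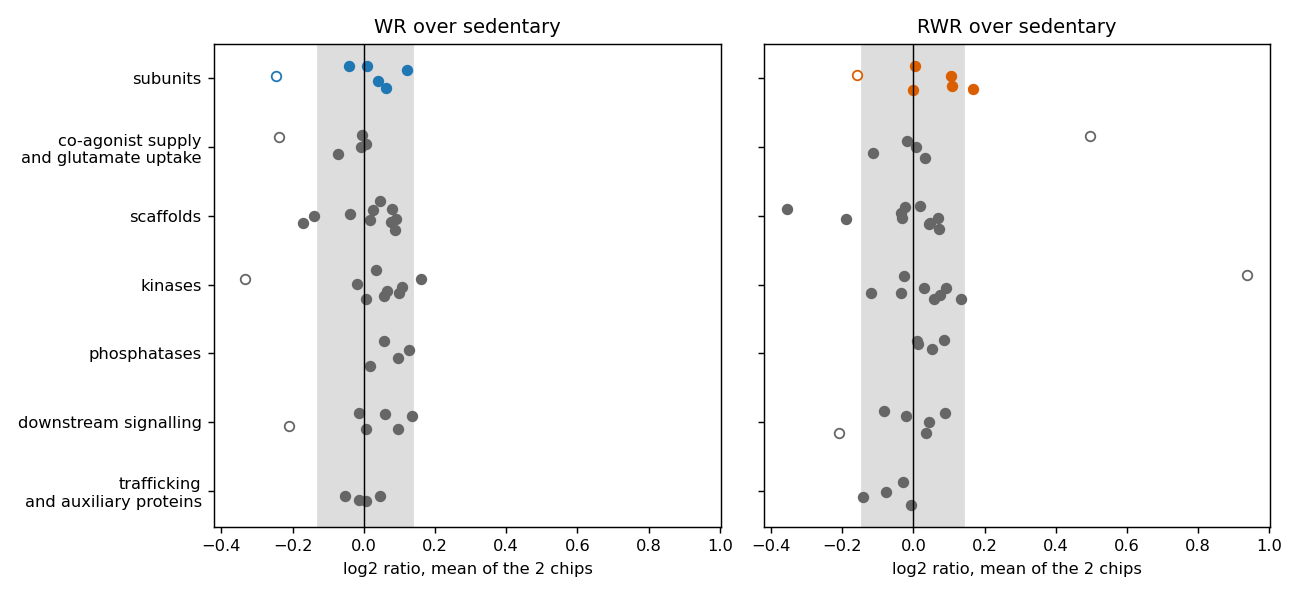
Log2 ratio of running over sedentary (horizontal axis, mean of the 2 chips) for the brightest probe of each gene, by group, in WR (left) and RWR (right). The grey band leaves out the lowest 5% and the highest 5% of named genes well above background, and open points were not well above background in both dyes on all chips. In WR the 5 filled subunit points lie inside the band, and in RWR 1 of them, Grin2d at 0.17, lies outside it.

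Of the 37 cell type markers, 32 had a probe and 27 passed the background flag throughout. These include the principal neuron markers Neurod2, Wfs1 and Slc17a7, the 3 of 6 with a probe. Their summed signal was 6382 to 7093 in WR, 6198 to 7162 in RWR and 5849 to 7287 in the sedentary pool. Most of this sum was Neurod2, with a mean signal of 4773. The pair means of Neurod2, Wfs1 and Slc17a7 were 0.071, 0.097 and -0.010 in WR and 0.039, 0.044 and -0.090 in RWR. The oligodendrocyte markers Mbp, Mog and Mag had pair means of -0.072, -0.061 and -0.075 in WR and of -0.24, -0.081 and -0.038 in RWR, all below 0, with opposite signs on the chips of a pair for Mbp and Mog in WR and for Mog and Mag in RWR.

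Of the 4 choroid plexus markers, Ttr was called lower in WR, at -0.86, from -0.72 and -0.99, and was 0.12 in RWR. The summed signal of the list was 329 to 387 in the WR pool, 673 to 766 in the RWR pool and 592 to 687 in the sedentary pool. Most of this sum was Ttr, with a mean signal of 496, against 47.3 for Folr1, 33.6 for Aqp1 and 6.59 for Kl. The sum thus restates the value of Ttr and says little of the other 3 genes. Folr1 was -0.21 in WR, and Aqp1 and Kl, at 0.044 and 0.43, were above 0 there, with Kl at background throughout. Among the 3 pituitary markers, Prl, which did not pass the background flag in every pool on every chip, was called lower in RWR, at -1.20, and was -0.98 in WR. The other 2 passed the flag throughout and were not called. Gh1 was -0.14 in RWR and -0.29 in WR, and Pomc was above 0, at 0.055 and 0.017. The summed signal of the list was 524 to 580 in the RWR pool, 480 to 534 in the WR pool and 514 to 575 in the sedentary pool. Most of this sum was Pomc, with a mean signal of 446, against 65.5 for Gh1 and 23.7 for Prl. It thus says little of Prl. The thalamus marker Prkcd was 0.24 in RWR, above 0 on both chips, and -0.13 in WR, below 0 on both. The part of these differences in the values of the subunits was not tested.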

How the data were processed

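Hippocampal RNA pools of sedentary, WR and RWR rats were measured on 4 chips of a rat whole-genome oligo array in 2 colours, and each dye's label gave its group. The authors processed the scans with Agilent Feature Extraction 11.0.1.1 (per the labels), with background subtraction and LOWESS dye normalization. The deposited log10 ratio is of Cy5 over Cy3, the deposited intensity is the processed signal of each dye, and each deposited p-value comes from the software's error model of that chip. The deposited series matrix equals the same log10 ratio and is not turned for the dye swap. The array was designed on rn4.

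From these, control spots and spots with an outlier flag were left out (118 to 140 per chip), log2 ratios of running over sedentary were formed, and spots were averaged by probe (p-values by their median). A probe counted as well above background where more than 0.5 of its spots were. Names came from accessions, versions ignored, in the RefSeq table of GRCr8, which named 10759 probes of 8893 genes. A gene was represented by its brightest probe, and every subunit probe is given. Both chips of a pair carry the same pools and count as 1 replicate, so no test between conditions was made. The technical SD of a chip is the root mean square, within 20 signal levels, of the contrast of the 4 chips that holds no dye, WR or RWR term. Loess was run in limma 3.58.1 (R 4.3.3). Partner genes were named as the highest and the lowest of each group in each comparison among those well above background, and some results under this rule and among the cell type markers are not reported here. Members and lists were chosen with earlier results of these data known. The selection was tested on simulated data.

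The alternatives were loess on median signals after normexp (offset 50) or with no background step, centring of each chip on its median or within 20 signal levels, the series matrix values, a filter on dim probes, the median over the probes of a gene, each chip left out, and 3 other selections: without the p-value, on the pair mean with p under 0.01 on at least 1 chip, and past 1.2-fold on the pair mean. Python 3.11.15 was used with pandas 2.3.3, numpy 2.4.6 and scipy 1.17.1. The number of chips limits the precision.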

Additional observations from a re-analysis of the deposited data

Results flagged for a closer look

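The probe of Camk2d, a kinase subunit among the partner genes, was below 0 on both chips in WR and above 0 on both in RWR, a difference of 1.27 between the pair means that was not tested. It was not well above background in any pool on any chip, so no change is given for it. No subunit probe went in opposite directions in the 2 running modes on all chips.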

How the results depend on the processing

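Each group is 1 pool, so no value carries an error across rats. The brighter Grin2a probe, Grin2d and Grin3b had 1 spot on a chip and so no spread over spots. No paired analysis was possible because the chips of a group are dye-swapped repeats of the same pools and the labels give no replicate numbers. The subunit probes had 0 calls in both comparisons under every alternative run, single chips included.

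With chips left out, the median of the subunit genes was between 0.016 and 0.053 in WR and between 0.024 and 0.048 in RWR, against 0.024 and 0.056 with both chips, and the median difference of RWR and WR was between 0.0083 and 0.076, against 0.037. With dim probes left out, which removes Grin3b, it was 0.11 in RWR and the difference was -0.014. The median of the partner genes was between 0.019 and 0.041 in WR and between -0.031 and -0.00045 in RWR on single chips. Partner probes called on single chips numbered 0 to 1 in WR (Dlg4) and 0 to 2 in RWR (Dlg4 and Dlg1). Without a p-value there was 1 in RWR (Camk2d, at background). Past 1.2-fold there were 1 in WR (Camk2d) and 3 in RWR (Dao, Camk2d and Dlg1). The 1.2-fold rule took 2.29% of all probes as higher and 1.89% as lower in WR, and 1.64% and 4.48% in RWR. For calls on single chips and without a p-value the share over all probes was not counted, so these counts are no result about the partners. Single chips keep the dye term, which cancels only in the mean of a pair. Dlg4 was called on chips 1 and 3, with the running pool in Cy5, and was above 0 on the swapped chips. The cause of these shifts was not tested, apart from the genes or chips left out.

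Of the single genes, Grin2a was above 0 in 9 of 9 alternatives in WR (0.090 to 0.14) and in RWR (0.10 to 0.15), and Grin1 in RWR in 9 of 9 (0.033 to 0.18). Grin1 in WR was between -0.18 and 0.096 with 8 of 9 below 0. Grin2c in WR and RWR and Grin2d in RWR were above 0 in 8 of 9, with -0.15, -0.18 and -0.0072 on the chip that differed in sign. Grin2b in WR was above 0 in 9 of 9 (0.0076 to 0.075). Grin3b in WR was below 0 in 8 of 8 (-0.27 to -0.13). Grin3b in RWR was below 0 in 6 of 8, with 0.077 and 0.048 under the 2 loess alternatives. These counts overstate the number of separate checks. The series matrix holds the same ratios, and the dim-probe filter and the probe median leave a bright gene with a single probe unchanged. Centring moved the values little, so the counts rest mainly on the loess alternatives and the single chips.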
